A study of Homo sapiens with 12 samples.

Results

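The genes described here encode factors that build ribosomes and subunits of RNA polymerase I, in human kidney cells exposed to a compound called Nnm. The list held 40 genes of the known machinery of ribosome production, and they were chosen with earlier results of these data known. Counts and medians over the list therefore describe these genes and are no test of the pathway. Of these, 35 had at least 1 probe set whose platform annotation named that gene alone, and where several did, the brightest on average over the 12 arrays stood for the gene. All 35 also passed the filter on low signal, a log2 value above 4 on at least 3 arrays. The array named 19777 genes alone in this way. BOP1, GNL3, PPAN, NOP56 and DKC1 had no such probe set and were not analysed here. The 35 genes fell into 6 roles, with 12 small subunit factors, 8 large subunit factors, 5 proteins of small nucleolar ribonucleoproteins (snoRNPs), 2 subunits of RNase P and RNase MRP, 4 polymerase I subunits and 4 other nucleolar proteins.

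Ribosome production starts in the nucleolus, where RNA polymerase I transcribes a long precursor of the ribosomal RNAs. Small and large subunit assembly factors bind the precursor as it is made, snoRNPs guide its methylation and pseudouridylation, and nucleases such as RNase MRP cut it. Growing cells spend much of their energy on this work, and MYC is known to activate many of its genes.

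Cells of HK-2, an immortalized line from human proximal tubule epithelium, received either Nnm at a dose labelled high or the matching vehicle, for 24 h or 48 h. Each of the 4 groups held 3 arrays, labelled as biological replicates 1 to 3, so p-values measure the spread between such replicates of a single cell line. The dose in figures, the vehicle and the full name of Nnm are not given in the sources used here. RNA was hybridised to Affymetrix arrays and deposited as log2 GCRMA values. A log2 difference of -1 corresponds to a signal 2-fold lower, and levels of different probe sets cannot be set against each other.

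The arrays were alike in signal, with 22081 to 22286 probe sets above log2 4 on each. The Nnm arrays numbered 2 stood apart from the other Nnm arrays. On the first principal component, which held 57.4% of the variance, they lay at 16.1 (24 h) and 19.8 (48 h), between the other Nnm arrays (-87.8 to -68.6) and the controls (44.2 to 49.6). Their correlation over probe sets was 0.974 and 0.977 with the controls of their time, and 0.938 and 0.947 with the other Nnm arrays. The difference between 3′ and 5′ ACTB probe sets, a sign of RNA quality, was 1.09 to 1.19 on all arrays numbered 2 and 0.800 to 0.966 on the rest. For GAPDH the same difference did not separate them, at -0.175 to -0.0635 on arrays numbered 2 and -0.149 to -0.0618 on the rest. The part of RNA quality in any result was not tested. Of 9 measured proximal tubule markers, CDH2 and PAX8 passed the filter, and MME, ANPEP, GGT1, LRP2, CUBN, SLC34A1 and AQP1 did not. Keratins and EPCAM passed, the leukocyte markers PTPRC, CD14, CD3E and MS4A1 did not, and 3 of 5 fibroblast markers did (COL1A1, DCN and LUM). Of all these markers, limma called 0 at 24 h and 1, CDH2, at 48 h. With the replicate number as a block, CDH2 (0.46) and the podocyte marker SYNPO (0.60) were called higher and KRT8 (-0.59) and COL1A1 (-0.80) lower at 24 h, and CDH2 (0.75) and PODXL (0.71), also of podocytes, higher and CDH1 (-0.87) lower at 48 h. The part of these markers in the results below was not tested.

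Some promoters of these genes are shown first, because they carry short motifs that known activators of ribosome genes can bind. RefSeq (GRCh38.p14) held promoter windows for 33 of the 40 genes, and the 250 bases before each start were searched on both strands. These genes had 40 windows in all, and a gene was counted if any of its windows held the motif. The E-box CACGTG, which MYC and related factors bind, was found in 4 of the 33 (12.1%), against 7.73% of 27305 genes of all kinds and 9.73% of 15843 protein-coding genes. The sequence CCGGAAG, a core bound by ETS family factors, was found in 10 of 33 (30.3%), against 10.2% of all genes and 14% of protein-coding genes. The longer palindromic NRF1 motif was found in 1 of 33 (3.03%), against 1.28% of all and 1.72% of protein-coding genes. None of the 3 motifs contains another, the E-box and the NRF1 motif read the same on both strands, the median GC content of the windows was 61.2% for these genes and 62.4% for protein-coding genes, and a match is a description of the letters, not of a bound site. Among genes that fell at 24 h, 3 of 16 with a window held the E-box and 6 held the ETS core; among genes not called, these were 1 and 3 of 13. The ETS core of DDX21 lies in its other window, not in the one printed below.

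The 3 genes that fell at 24 h and held an E-box are UTP4 and UTP20, both of the small subunit processome, and the helicase DDX21. The windows lie at chr16:69132399-69132648 (UTP4), chr12:101279855-101280104 (UTP20) and chr10:68956397-68956646 (DDX21), all on the plus strand. Capitals mark the E-box, whose first base lies 16, 10 and 31 bases before the start.
UTP4: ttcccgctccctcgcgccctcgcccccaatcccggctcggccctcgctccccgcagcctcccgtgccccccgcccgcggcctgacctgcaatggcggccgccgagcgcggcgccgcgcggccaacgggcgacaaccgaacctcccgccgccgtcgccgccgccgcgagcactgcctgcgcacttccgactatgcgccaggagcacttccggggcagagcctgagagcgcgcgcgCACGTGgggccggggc
UTP20: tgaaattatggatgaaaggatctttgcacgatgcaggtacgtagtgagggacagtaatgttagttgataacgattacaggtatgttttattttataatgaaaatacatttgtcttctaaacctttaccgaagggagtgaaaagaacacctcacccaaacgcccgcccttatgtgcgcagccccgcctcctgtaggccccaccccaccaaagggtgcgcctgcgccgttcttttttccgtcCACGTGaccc
DDX21: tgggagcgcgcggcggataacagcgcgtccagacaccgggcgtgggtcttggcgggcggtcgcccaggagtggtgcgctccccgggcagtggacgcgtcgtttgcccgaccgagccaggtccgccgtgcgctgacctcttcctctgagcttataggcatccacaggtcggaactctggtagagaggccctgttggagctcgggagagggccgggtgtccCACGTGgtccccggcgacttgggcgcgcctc

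The ETS core was most frequent, among genes that fell and are not printed above, in POLR1C (3 matches) and NOP16 (2 matches). These windows were chosen after the matches were counted. They lie at chr6:43516839-43517088 (POLR1C, plus strand) and chr5:176388599-176388848 (NOP16, minus strand, printed as the gene reads). Capitals mark CCGGAAG or its reverse complement CTTCCGG, which overlap in both windows.
POLR1C: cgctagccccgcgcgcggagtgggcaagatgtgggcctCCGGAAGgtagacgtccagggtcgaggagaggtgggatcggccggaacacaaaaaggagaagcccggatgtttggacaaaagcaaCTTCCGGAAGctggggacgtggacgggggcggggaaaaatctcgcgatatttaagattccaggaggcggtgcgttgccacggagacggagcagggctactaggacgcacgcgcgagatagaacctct
NOP16: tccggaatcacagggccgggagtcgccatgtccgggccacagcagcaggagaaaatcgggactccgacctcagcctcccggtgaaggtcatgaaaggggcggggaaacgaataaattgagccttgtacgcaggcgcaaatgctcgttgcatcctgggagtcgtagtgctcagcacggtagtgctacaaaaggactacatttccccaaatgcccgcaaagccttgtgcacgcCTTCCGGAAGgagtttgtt

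The first comparison asked how these genes differed between Nnm and vehicle after 24 h. Many of the listed genes fell: 20 of 35 were lower in Nnm cells at an adjusted p under 0.05 in limma and 0 were higher. Of all 22829 tested probe sets, 7.42% were lower and 7.32% higher. The median change of the 35 genes was -0.69 on the log2 scale, and that of all tested probe sets was -0.0077. By role the calls were 6 of 12 small subunit factors, 7 of 8 large subunit factors, 3 of 5 snoRNP proteins, 1 of 2 RNase P and MRP subunits, 2 of 4 polymerase I subunits and 1 of 4 other nucleolar proteins. With the replicate block they were 7, 8, 3, 1, 3 and 3, when 15.1% of all tested probe sets were lower and 14.2% higher. The roles were not tested against each other. TBL3 and POP1 had the largest falls. Only WDR75 and NPM1 of the 35 had a change above 0, and neither was called. In such bulk samples fewer cells with a transcript and less of it per cell cannot be told apart.

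**Figure D1:**
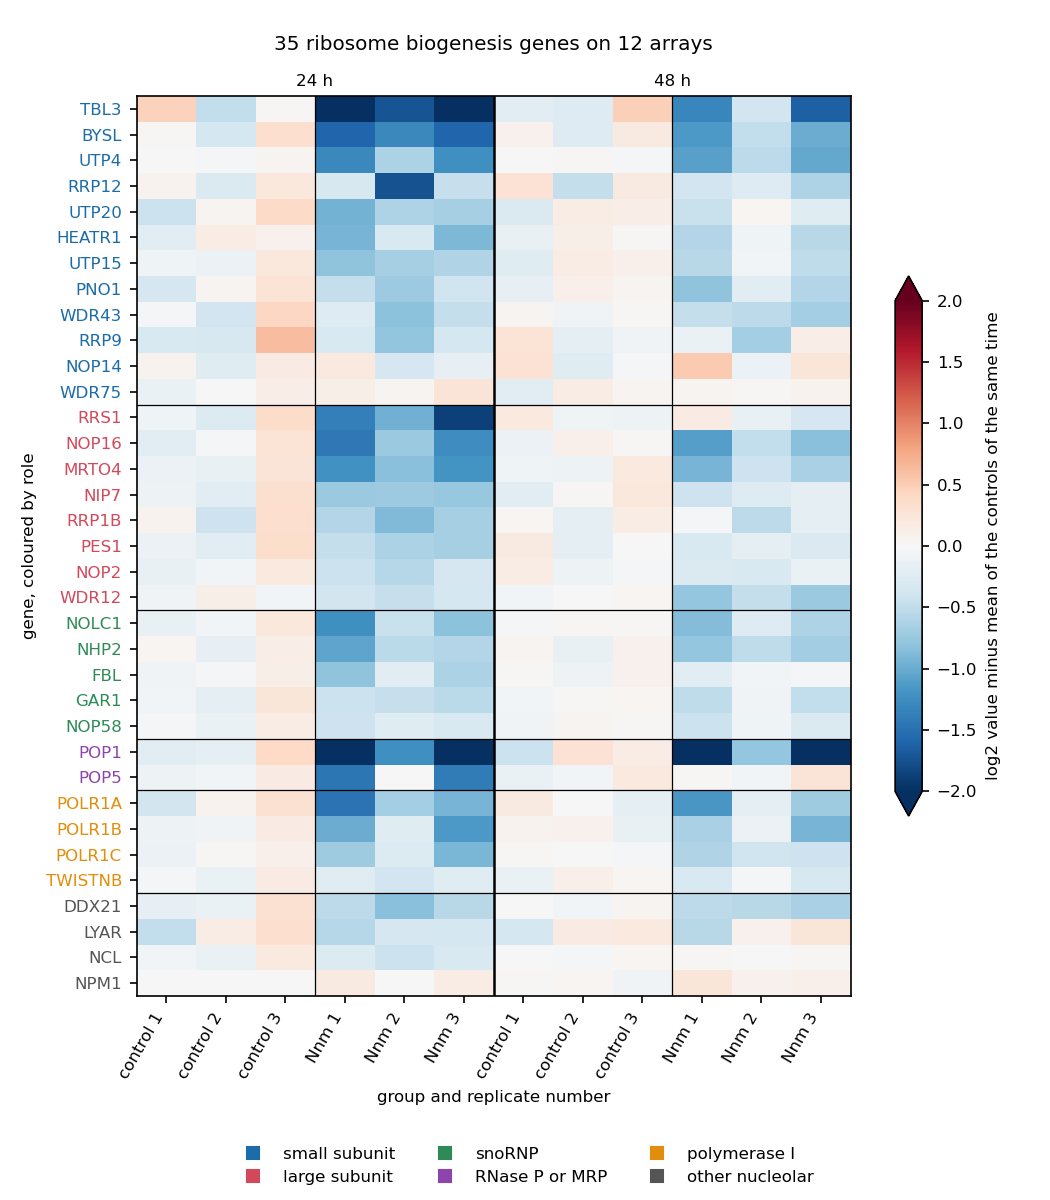
Heat map of the 35 genes (rows, coloured by role) on the 12 arrays (columns, by time, group and replicate number), as log2 value minus the mean of the controls of the same time, with the colour scale ending at -2 and 2. Most rows are blue in the Nnm columns at 24 h, paler at 48 h, and the NPM1 and WDR75 rows show almost no colour.

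Every Nnm array was below every control array for 28 of the 35 genes at 24 h, where this held for 18.9% of all tested probe sets. The genes whose arrays overlapped were WDR43, WDR75, NOP14, RRP9, POP5, NPM1 and LYAR. The Nnm array numbered 2, which resembled the controls over the whole transcriptome, lay below all 3 control arrays for 31 genes (35.1% of all probe sets). The other Nnm arrays did so for 30 (replicate 1, 38.6% of all probe sets) and 31 (replicate 3, 39.9%). Subtracting the control of the same replicate number gave median differences of -0.60, -0.47 and -0.97 over the 35 genes, and values between -0.017 and 0.0064 over all probe sets. For 31 genes all 3 of these differences were below 0, as for 29.7% of all tested probe sets. Another 26 tested probe sets named 18 of the genes alone, of which 23 were below 0 at 24 h and 11 were called lower; the sign was that of the chosen probe set for 23 at 24 h and 24 at 48 h.

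**Figure D2:**
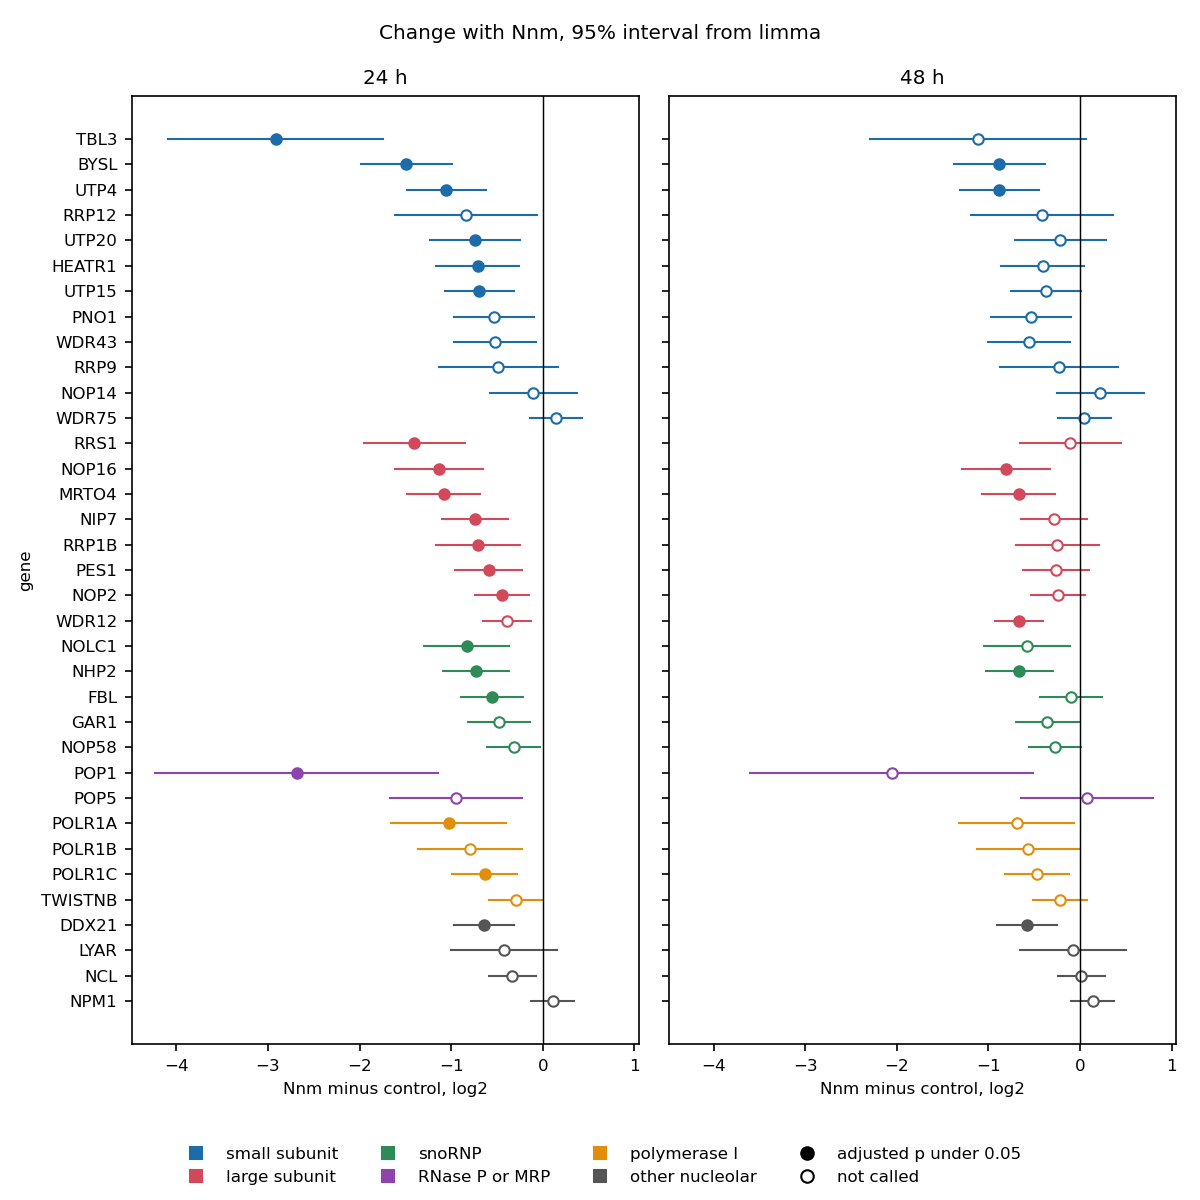
Nnm minus control on the log2 scale (x axis) for each gene (y axis, grouped by role) at 24 h and 48 h; points are limma estimates, lines their 95% intervals, filled points passed an adjusted p under 0.05 and open points did not. Filled points lie below 0 in both panels, 20 at 24 h and 7 at 48 h.

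Small subunit factors build the processome, the large particle that folds and cuts the precursor of the small subunit RNA. TBL3, a WD-repeat protein of this particle, read 7.57, 6.60 and 7.13 in controls (log2 values of replicates 1 to 3) and 4.09, 5.37 and 3.10 with Nnm at 24 h. The Nnm arrays were all lower, the array numbered 2 was nearest to the controls, and replicate 3 was under the filter level of 4. The change was -2.91 ± 0.53 (SE, adjusted p = 0.0139 in limma).

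BYSL, or bystin, which acts in maturation of the small subunit, read 8.93, 8.56 and 9.25 in controls and 7.33, 7.63 and 7.32 with Nnm at 24 h. The groups did not overlap and the change was -1.49 ± 0.22 (SE, limma adjusted p = 0.00991). UTP4, a component of the early processome, changed by -1.05 ± 0.19 (adjusted p = 0.0147). Its other tested probe set gave -1.08 at 24 h and -1.06 at 48 h, and both were called.

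The remaining called small subunit factors were UTP20 (-0.74, limma adjusted p = 0.0494), HEATR1 (-0.71, adjusted p = 0.0438) and UTP15 (-0.69, adjusted p = 0.0297), all processome proteins. The 3 other tested probe sets of HEATR1 gave changes between -0.75 and -0.70, of which 1 was called. RRP12 (-0.84), PNO1 (-0.53), WDR43 (-0.52), RRP9 (-0.48) and NOP14 (-0.10) were not called. PNO1 passed with the replicate number as a block (adjusted p = 0.0495). WDR75, a processome protein that acts beside UTP4, had a change of 0.15 with a 95% interval from -0.14 to 0.43.

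Large subunit factors assemble and remodel the precursor of the large subunit. RRS1, which helps to bring the small ribosomal RNA of the large subunit into the particle, read 9.82, 9.62 and 10.26 in controls and 8.53, 8.94 and 8.03 with Nnm at 24 h. All Nnm arrays were lower, and the change was -1.40 ± 0.25 (SE, limma adjusted p = 0.0132). NOP16, a nucleolar protein of the same assembly path, read 9.33, 9.52 and 9.84 in controls and 8.14, 8.81 and 8.32 with Nnm at 24 h.

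The NOP16 arrays did not overlap, its change was -1.14 ± 0.22 (adjusted p = 0.0158, limma) and its other tested probe set gave -1.004. MRTO4, a relative of the ribosomal stalk protein P0 that holds its place during assembly, read 9.15, 9.12 and 9.52 in controls and 8.05, 8.42 and 8.06 with Nnm at 24 h. Again every Nnm array was lower, with a change of -1.08 ± 0.18 (adjusted p = 0.0117, limma). The other called factors were NIP7 (-0.74), RRP1B (-0.71), the PeBoW complex protein PES1 (-0.59) and the RNA methyltransferase NOP2 (-0.45, adjusted p = 0.0482).

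WDR12, the partner of PES1 in the PeBoW complex, just missed the threshold at 24 h (-0.39, limma adjusted p = 0.0501) and passed with the replicate block (adjusted p = 0.0332). Its other 2 tested probe sets gave -0.029 and 0.016 at 24 h.

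SnoRNPs carry the enzymes that modify ribosomal RNA. Of the proteins of the pseudouridylation class, NHP2 read 12.17, 11.97 and 12.27 in controls and 11.08, 11.60 and 11.55 with Nnm at 24 h, a change of -0.73 ± 0.16 (SE, limma adjusted p = 0.0236). GAR1, of the same particles, changed by -0.48 and was not called (adjusted p = 0.0600). FBL, or fibrillarin, the methyltransferase of the methylation class, read 12.86, 12.89 and 13.05 in controls and 12.13, 12.70 and 12.30 with Nnm at 24 h.

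Arrays of both groups were separate for FBL, and it changed by -0.56 ± 0.15 (adjusted p = 0.0395, limma). Its partner NOP58 changed by -0.32 and was not called (adjusted p = 0.106). NOLC1, a chaperone that binds both snoRNP classes, fell by 0.83 (adjusted p = 0.0311), and its other 2 tested probe sets fell by 1.04 and 1.34.

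RNase MRP cuts precursor ribosomal RNA and RNase P cuts precursor tRNA, and the pair share most proteins. POP1, their largest protein, read 7.40, 7.43 and 8.02 in controls and 3.72, 6.39 and 4.69 with Nnm at 24 h. Every Nnm array was lower, with the array numbered 2 far nearer to the controls than the others and replicate 1 under the filter level of 4, and the change was -2.69 ± 0.70 (SE, adjusted p = 0.0332 in limma). POP5, a small subunit of both enzymes, read 10.15, 10.21 and 10.41 in controls and 8.81, 10.27 and 8.86 with Nnm at 24 h.

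The Nnm array numbered 2 of POP5 lay within the controls while the others were more than 1 log2 unit below them. The change of -0.94 ± 0.33 was not called (adjusted p = 0.0720, limma); without that array it was -1.42.

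RNA polymerase I was measured by its largest catalytic subunit POLR1A, the other large catalytic subunit POLR1B, the subunit POLR1C, which it shares with polymerase III, and TWISTNB (now POLR1F), a subunit of its stalk. POLR1A read 6.03, 6.46 and 6.69 in controls and 4.91, 5.72 and 5.46 with Nnm at 24 h, without overlap. Its change was -1.03 ± 0.28 (SE, adjusted p = 0.0389, limma), and its other tested probe set gave -1.74. POLR1C read 8.45, 8.59 and 8.67 in controls and 7.86, 8.29 and 7.66 with Nnm, also without overlap (-0.63 ± 0.16, adjusted p = 0.0303).

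POLR1B read 9.20, 9.24 and 9.47 in controls and 8.31, 9.06 and 8.15 with Nnm at 24 h. The arrays did not overlap, the change of -0.79 ± 0.25 was not called (limma adjusted p = 0.0593), and it passed with the replicate block (adjusted p = 0.0287). Its other 3 tested probe sets ranged from -0.86, which was called, to 0.0051. TWISTNB read 8.89, 8.80 and 9.10 in controls and 8.69, 8.56 and 8.69 with Nnm, a change of -0.29 that was not called (adjusted p = 0.146).

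The 4 other nucleolar proteins, which serve chromatin, RNA folding and transport in the nucleolus, had a median change of -0.38 at 24 h. DDX21, an RNA helicase that binds ribosomal RNA genes and snoRNAs, was the member of this role that fell (-0.64 ± 0.15 SE, limma adjusted p = 0.0253). NCL, or nucleolin, read 13.03, 12.95 and 13.28 in controls and 12.81, 12.66 and 12.78 with Nnm at 24 h. The NCL arrays did not overlap, and the change of -0.33 was not called (adjusted p = 0.0724) except with the replicate block (adjusted p = 0.0404).

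NPM1, or nucleophosmin, read 14.87, 14.88 and 14.86 in controls and 15.05, 14.88 and 15.01 with Nnm at 24 h, with overlapping arrays and a 95% interval of the change from -0.12 to 0.34. Its other 2 tested probe sets gave 0.13 and -0.048. LYAR, a nucleolar protein of growing cells, changed by -0.42 and was not called (adjusted p = 0.274 in limma, 0.0430 with the replicate block).

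**Figure D3:**
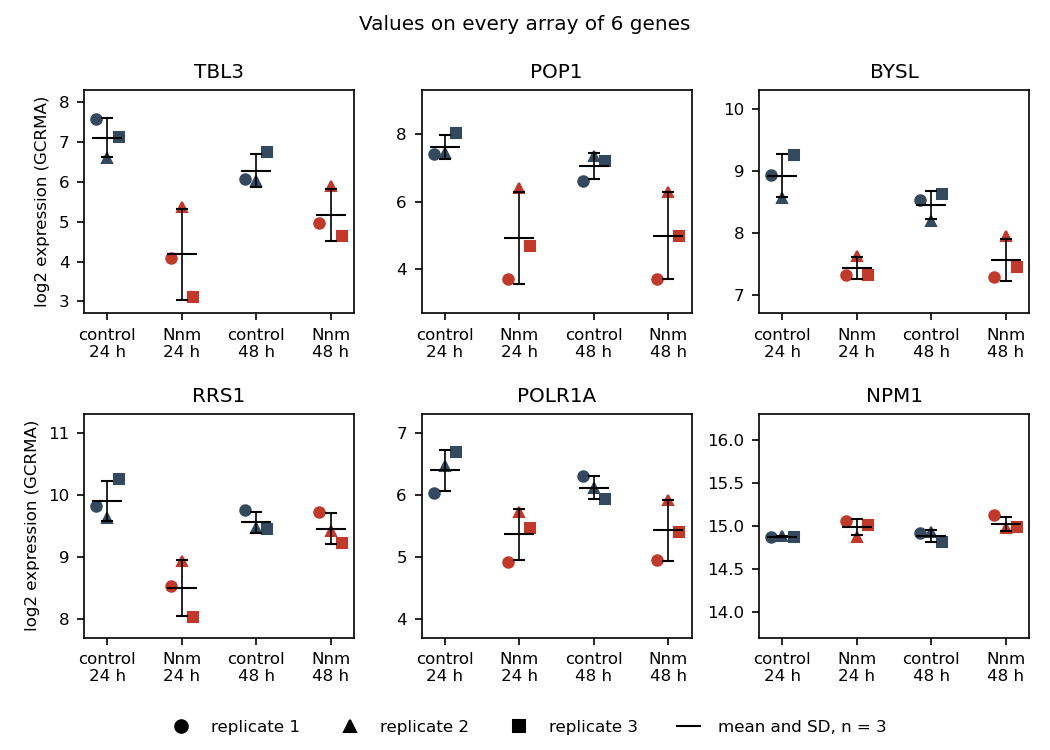
Log2 GCRMA values (y axis, with its own range in each panel) of TBL3, POP1, BYSL, RRS1, POLR1A and NPM1 in the 4 groups (x axis); points are single arrays, their shape the replicate number, and black bars the mean and SD of 3 arrays. The Nnm triangles (replicate 2) lie nearer to the controls than the other Nnm points for TBL3 and POP1, and the RRS1 groups separate at 24 h and overlap at 48 h.

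The count at 24 h depended on single arrays, as did the share of all probe sets called, given in brackets (14.7% in the main fit). The count was 0 of 35 without Nnm replicate 1 (0.377%) or control replicate 3 (0.355%) of that time. It was 1 without Nnm replicate 3 (0.841%), 4 without control replicate 1 (1.77%) and 12 without control replicate 2 (8.64%). Leaving out control replicate 2 (9.92%), control replicate 3 (10.3%) or Nnm replicate 3 (11.2%) of 48 h gave 13 each. The median change of the 35 genes stayed between -0.71 and -0.55 with any 1 array of 24 h left out, and arrays of 48 h cannot move it. Without both Nnm arrays numbered 2 the count was 25, when 47.0% of all probe sets were called. Since those arrays were left out for resembling controls, these calls test no gene.

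The same comparison at 48 h gave fewer calls. In limma 7 of the 35 genes were lower and 0 higher, against 4.44% of all tested probe sets lower and 5.74% higher. The 7 were UTP4, BYSL, NOP16, MRTO4, WDR12, NHP2 and DDX21, and 6 of them, WDR12 being the exception, had also fallen at 24 h, which is 6 of the 20 called then. The median change was -0.37, and 0.0055 over all tested probe sets. By role the calls were 2 of 12 small subunit factors, 3 of 8 large subunit factors, 1 of 5 snoRNP proteins, 0 of 2 RNase P and MRP subunits, 0 of 4 polymerase I subunits and 1 of 4 other nucleolar proteins. The 24 h and 48 h groups hold different arrays, and the fit shares 1 estimate of spread.

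For 18 genes every Nnm array was below every control array at 48 h (16.1% of all probe sets), and for 1, NPM1, every Nnm array was above (18.7%). The median differences between arrays of the same number were -0.45, -0.20 and -0.53, with replicate 2 the smallest, and 26 genes were below 0 in all 3 (28.7% of all probe sets). The Nnm array numbered 2 lay below all 3 controls for 22 genes, where 29.1% of all probe sets did, and replicates 1 and 3 did so for 26 and 25 (38.1% each).

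**Figure D4:**
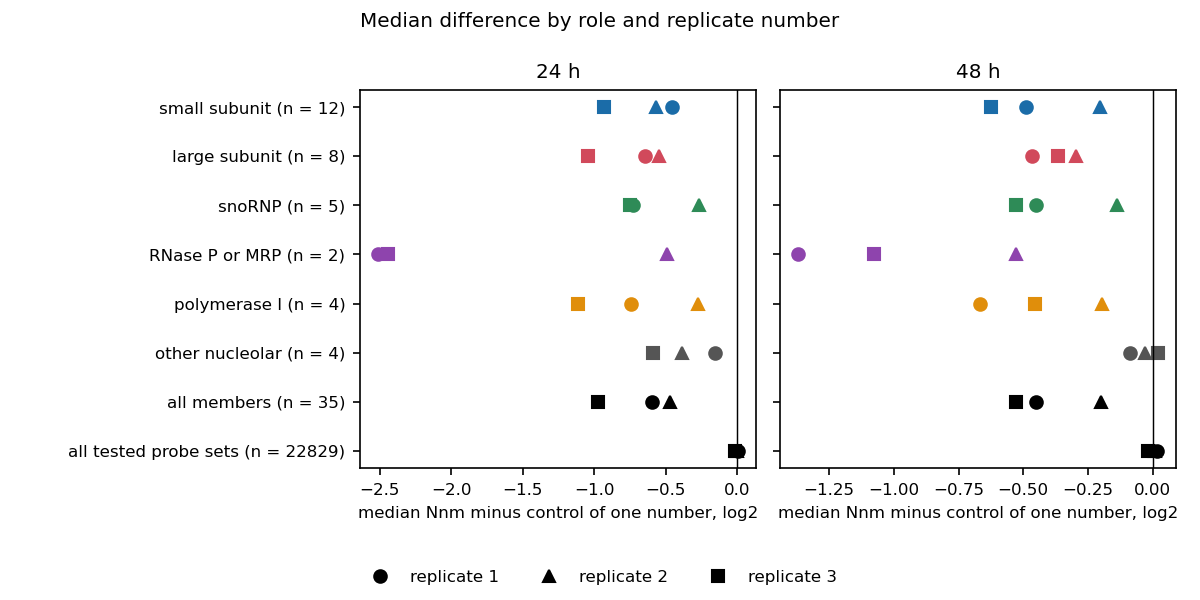
Median over the genes of each role (y axis, n genes in brackets) of the Nnm array minus the control array of the same replicate number (x axis, log2), at 24 h and 48 h; the x axes differ between panels and shapes mark replicate numbers. All roles lie below 0 for all 3 numbers at 24 h, the other nucleolar proteins lie at -0.088 to 0.021 at 48 h, and all tested probe sets lie between -0.017 and 0.017.

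Among small subunit factors at 48 h, BYSL read 8.53, 8.19 and 8.62 in controls and 7.29, 7.95 and 7.45 with Nnm (-0.88 ± 0.22 SE, limma adjusted p = 0.0361). UTP4 read 10.80, 10.83 and 10.76 in controls and 9.71, 10.27 and 9.77 with Nnm (-0.88 ± 0.19, adjusted p = 0.0235). In both genes the groups were separate and the Nnm array numbered 2 was the highest of its group. TBL3 read 6.06, 6.02 and 6.75 in controls and 4.97, 5.89 and 4.64 with Nnm at 48 h.

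TBL3 thus had no overlap at 48 h but a change of -1.11 ± 0.53 that was not called (adjusted p = 0.184, limma). The array numbered 2 lay just below its lowest control.

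Among large subunit factors at 48 h, NOP16 read 9.06, 9.29 and 9.21 in controls and 8.08, 8.69 and 8.36 with Nnm (-0.81 ± 0.22 SE, limma adjusted p = 0.0420). MRTO4 read 8.81, 8.79 and 9.09 in controls and 7.97, 8.48 and 8.24 with Nnm (-0.67 ± 0.18, adjusted p = 0.0435). WDR12 read 9.97, 10.03 and 10.05 in controls and 9.24, 9.54 and 9.28 with Nnm (-0.67 ± 0.12, adjusted p = 0.0134), the smallest adjusted p of the 35 genes at that time. In all 3 genes the groups were separate. The other 2 tested probe sets of WDR12 gave -0.11 and -0.75 and were not called.

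RRS1, among the largest falls at 24 h, read 9.76, 9.46 and 9.45 in controls and 9.73, 9.41 and 9.22 with Nnm at 48 h. Its groups overlapped, with a change of -0.10 and a 95% interval from -0.65 to 0.44. NIP7 (-0.29), PES1 (-0.26), RRP1B (-0.24) and NOP2 (-0.24), all called at 24 h, were not called at 48 h.

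Of the snoRNP proteins, NHP2 read 11.86, 11.67 and 11.89 in controls and 11.03, 11.30 and 11.11 with Nnm at 48 h (-0.66 ± 0.16 SE, limma adjusted p = 0.0337). FBL read 12.83, 12.71 and 12.89 in controls and 12.59, 12.76 and 12.79 with Nnm. The NHP2 groups were separate, while those of FBL overlapped around a change of -0.10 with a 95% interval from -0.44 to 0.24. NOLC1 changed by -0.58, called only with the replicate block (adjusted p = 0.0392 against 0.0971).

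POP1 read 6.63, 7.34 and 7.20 in controls and 3.73, 6.28 and 4.98 with Nnm at 48 h. All Nnm arrays were again lower, in the same order as at 24 h and with replicate 1 again under the filter level of 4, and the change of -2.06 ± 0.70 was not called (limma adjusted p = 0.0819) except with the replicate block (adjusted p = 0.0236). POP5 read 9.79, 9.87 and 10.12 in controls and 9.94, 9.88 and 10.19 with Nnm, with overlapping arrays and a change of 0.08 (95% interval -0.65 to 0.80).

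No polymerase I subunit passed at 48 h (0 of 4 in limma, and 0 with the replicate block). POLR1A read 6.30, 6.11 and 5.93 in controls and 4.95, 5.92 and 5.40 with Nnm (-0.69 ± 0.28 SE, adjusted p = 0.130). POLR1B read 9.46, 9.48 and 9.24 in controls and 8.75, 9.28 and 8.47 with Nnm (-0.56 ± 0.25, adjusted p = 0.166). POLR1C read 8.39, 8.37 and 8.33 in controls and 7.77, 7.97 and 7.96 with Nnm (-0.47 ± 0.16, adjusted p = 0.0828).

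POLR1C arrays were separate at 48 h, those of POLR1A were so by the narrowest margin, and those of POLR1B overlapped. A different POLR1B probe set fell by 1.39 at 48 h and was called (adjusted p = 0.0118, limma), so the probe sets of this gene gave different calls. TWISTNB read 8.62, 8.85 and 8.79 in controls and 8.45, 8.73 and 8.43 with Nnm, overlapping, and its other tested probe set gave 0.26.

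NCL read 12.79, 12.77 and 12.83 in controls and 12.82, 12.78 and 12.82 with Nnm at 48 h. These values overlapped and the change was 0.01, with a 95% interval from -0.24 to 0.27. NPM1 read 14.91, 14.93 and 14.81 in controls and 15.12, 14.97 and 14.98 with Nnm at 48 h. Its arrays were all higher with Nnm, and the change of 0.14 was not called (limma adjusted p = 0.390). DDX21 fell by 0.58 (adjusted p = 0.0378).

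The count at 48 h was likewise set by few arrays, again with the share of all probe sets called in brackets (10.2% in the main fit). The count was 0 without Nnm replicate 1 (1.06%), Nnm replicate 3 (0.907%) or control replicate 3 (1.77%) of that time. It was 14 without Nnm replicate 2 (26.8%), and 1 without control replicate 1 (1.32%) or control replicate 2 (3.57%), all of that time. Among the 24 h arrays it was 2 without control replicate 1 (6.19%), 3 without Nnm replicate 3 (7.64%) and 4 without control replicate 2 (6.96%). Median changes ran from -0.50 to -0.32 with 1 array of 48 h left out, and arrays of 24 h cannot move them. Without both Nnm arrays numbered 2 the count was 18, when 42.1% of all probe sets were called.

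Whether the effect of Nnm differed between the times was tested by the difference of the effects in the same fit. For 31 of 35 genes the effect was higher at 48 h, less negative or more positive, with a median difference of 0.32 (0.015 over all tested probe sets). Limma called 0 of the 35 genes and 0% of all probe sets. Of all 22829 tested probe sets, 1418 had an unadjusted p under 0.05, and of the 35 genes 2 did. These were RRS1, with a difference of 1.30 ± 0.35 (SE, adjusted p = 0.780), and TBL3, with 1.80 ± 0.75 (adjusted p = 0.780). POP5 followed with 1.02 ± 0.46. Calls at 24 h that are missing at 48 h were therefore not shown to differ between the times.

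The groups were also compared over time. Control cells had lower values at 48 h than at 24 h for 32 of the 35 genes, with a median of -0.28 (-0.014 over all tested probe sets). Limma called 0 of 35 and 0% of all probe sets. Of all 22829 tested probe sets, 1836 had an unadjusted p under 0.05, and of the 35 genes 3 did. Those 3 were UTP15 (-0.55, adjusted p = 0.497), NOP2 (-0.36, adjusted p = 0.544) and NCL (-0.29, adjusted p = 0.582). For 11 genes all control arrays at 48 h were below all at 24 h, as for 12.1% of all probe sets. Control replicate 3 of 24 h had the highest median level over these genes of all 12 arrays (log2 9.84), and without it the median change was -0.13.

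Nnm cells at 48 h against 24 h had a median of 0.050 over the 35 genes, with 0 called by limma. An unadjusted p under 0.05 was found for 2 of the 35, and for 3138 of all 22829 tested probe sets. RRS1 was higher by 0.96 ± 0.25 (SE, adjusted p = 0.217) and WDR12 changed by -0.33 (adjusted p = 0.281). These comparisons share their arrays with the Nnm comparisons above, so their values are not independent of them.

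Other genes of ribosome production, chosen with earlier results of these data known, were read beside the 35. Of 191 tested genes in 10 lists, 44 were lower and 2 higher at 24 h in limma, and 10 lower and 2 higher at 48 h. Their median changes were -0.085 and -0.049. With the replicate block 53 were lower and 8 higher at 24 h, when 15.1% of all probe sets were lower and 14.2% higher, and 20 lower and 7 higher at 48 h (10.2% and 11.9%). The counts by list follow, to be read against the shares of all probe sets called in the main fit, 7.42% lower and 7.32% higher at 24 h and 4.44% lower and 5.74% higher at 48 h. An unadjusted p under 0.05 in limma was found for 8174 of all 22829 tested probe sets at 24 h and for 6988 at 48 h.

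Other small subunit factors had 13 of 35 lower at 24 h (median -0.44) and 5 of 35 lower at 48 h (median -0.35). The largest falls at 24 h were those of RRP7A (-1.89 ± 0.29 SE, limma adjusted p = 0.0101), the GTPase-like factor TSR1 (-1.52), the processome protein PWP2 (-1.36) and the methyltransferase EMG1 (-1.32). At 48 h they were RRP7A (-1.26), RRP36 (-1.10), IMP4 (-0.78) and NOL10 (-0.77). Other large subunit factors had 19 of 42 lower at 24 h (median -0.43), led by the helicase DDX56 (-1.42), NOC2L (-1.12), the SUMO protease SENP3 (-1.12) and NLE1 (-1.07). At 48 h 2 of the 42 were lower (median -0.29), NLE1 (-0.89) and SURF6 (-0.48), a share near that of all probe sets. With the replicate block 6 of the 42 were lower at 48 h.

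Further snoRNP proteins and assembly factors had 4 of 11 lower at 24 h, among them the paired ATPases RUVBL2 (-1.34) and RUVBL1 (-1.17), SNU13 (-0.82) and NOP10 (-0.43). At 48 h PIH1D1, which works with those ATPases, fell by 1.44 and NOP10 by 0.47. The block gave 7 of the 11 lower at 24 h and 4 at 48 h. Of 7 other RNase P and MRP subunits, RPP40 (-1.13) and POP7 (-0.73) fell at 24 h and 0 were called at 48 h, where 0 had an unadjusted p under 0.05 (POP7 at -0.37 and RPP40 at -0.38), though RPP25 (0.54) was called higher with the block. Of 13 exosome genes, which encode the RNA-trimming nuclease complex and its cofactors, EXOSC2 (-1.35), EXOSC7 (-1.01), EXOSC4 (-0.94) and EXOSC9 (-0.69) fell at 24 h. EXOSC6 had a change of 1.32 that was not called (limma adjusted p = 0.124), and with the replicate block it and EXOSC1 (0.40) were called higher at 24 h. None of the 13 was called by limma at 48 h, and 5 had an unadjusted p under 0.05, as had 6988 of all 22829 tested probe sets. The smallest p-values were those of EXOSC3 (change 0.52) and EXOSC1 (0.39), both changes above 0. With the block these were called higher and MTREX (-0.35) lower.

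Of 12 other polymerase I subunits and factors, 5 had a change below 0 at 24 h, 1 was called lower and 1 higher, near the shares of all probe sets. Their median change was 0.15 at 24 h and 0.096 at 48 h. With the block 1 was lower and 3 higher at 24 h, UBTF (1.42) and POLR1H (0.49) being added. POLR1D, a subunit shared with polymerase III, read 10.42, 10.12 and 10.43 in controls and 12.19, 11.33 and 11.82 with Nnm at 24 h, a rise of 1.45 ± 0.32 (SE, limma adjusted p = 0.0229). At 48 h it read 10.89, 10.44 and 10.73 in controls and 12.98, 11.65 and 12.65 with Nnm, a rise of 1.74 ± 0.32 (adjusted p = 0.0152).

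The POLR1D arrays were separate at both times and every Nnm array was higher. POLR1G fell at 24 h (-0.77), and TAF1A, a subunit of the selectivity factor for polymerase I, had the next smallest p at 48 h (0.64, limma adjusted p = 0.153). Of 10 polymerase III subunits, POLR3K fell at 24 h (-0.65) and POLR3B did not pass (-0.82, adjusted p = 0.0558 in limma). At 48 h 0 of the 10 were called and 2 had an unadjusted p under 0.05, as had 6988 of all 22829 tested probe sets. POLR3B was at -0.82 (limma adjusted p = 0.0681) and POLR3K at -0.35 (adjusted p = 0.200). With the replicate block 2 of the 10 were lower at each time, POLR3B and POLR3K at 24 h and POLR3B and POLR3D (-0.56) at 48 h.

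The ribosomal proteins themselves stayed close to 0. Of 31 tested proteins of the large subunit and 21 of the small subunit, limma called 0 at either time, and 0, 0, 1 and 1 had an unadjusted p under 0.05 (large and small subunit at 24 h, then at 48 h). Their median changes were 0.037 and 0.057 at 24 h and 0.026 and 0.069 at 48 h. The smallest p-values at 24 h belonged to RPL14 (0.16), RPL11 (0.15), RPS9 (0.24) and RPS27 (0.19), all changes above 0. At 48 h they belonged to RPL3 (-0.38), RPLP1 (0.23), RPS9 (0.28) and RPS25 (0.18). The control means of these probe sets had medians of log2 14.74 (large subunit) and 15.04 (small subunit), where the highest value on any array was 16.2, and whether signal so near the top hid a change was not tested. Many ribosomal proteins have near-identical pseudogenes, whose transcripts these probe sets may not tell apart.

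Of 9 tested genes of the MYC network, 0 were lower and 1 higher at 24 h (median change 0.41), and 1 lower and 1 higher at 48 h (median -0.023). With the replicate block 1 was lower and 3 higher at 24 h, and 1 lower and 2 higher at 48 h. MYC, the transcription factor named above, read 12.56, 12.10 and 12.16 in controls and 11.61, 11.83 and 11.55 with Nnm at 24 h. All Nnm arrays were lower, the change was -0.61 ± 0.19 (SE, limma adjusted p = 0.0512), and it passed with the replicate block (adjusted p = 0.0460). At 48 h it read 12.94, 12.56 and 12.52 in controls and 11.73, 12.09 and 12.21 with Nnm, a fall that was called (-0.66 ± 0.19, adjusted p = 0.0488). MXI1, which opposes MYC by binding its partner MAX, rose by 1.05 at 24 h (adjusted p = 0.0265), and MLXIP, a relative in the same network, rose by 1.44 at 48 h (adjusted p = 0.0361).

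**Figure D5:**
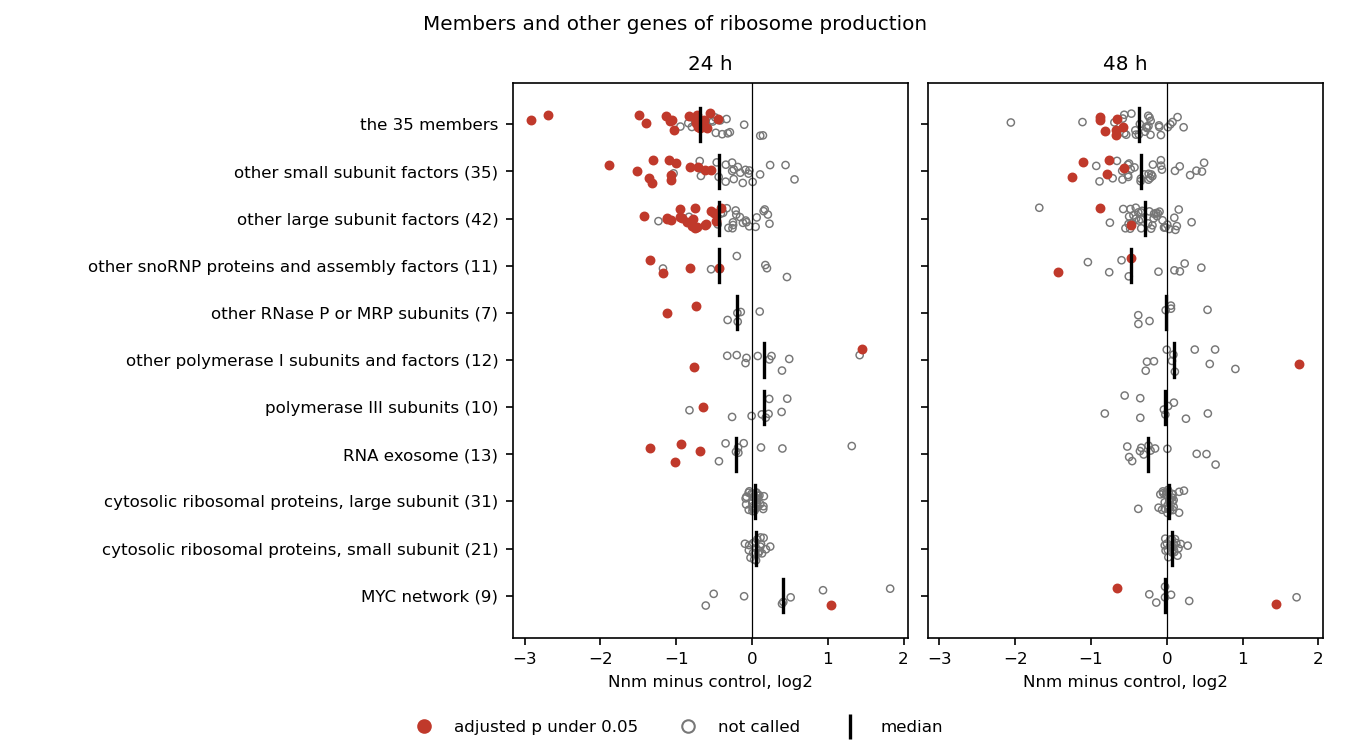
Nnm minus control on the log2 scale (x axis) for the 35 genes and 10 further lists (y axis, tested genes in brackets) at 24 h and 48 h; red points passed an adjusted p under 0.05 in limma, open points did not, and black bars are medians. Assembly factors lie mostly below 0, the ribosomal proteins cluster at 0, and the red point furthest to the right among other polymerase I genes is POLR1D.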

How the data were processed

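Gene expression was measured on 12 Affymetrix arrays of HK-2 cells. The authors' deposited table held log2 values. The submitters' processing notes name GCRMA without a version, and no source used here says which arrays were normalized together. GCRMA makes array distributions alike, which hides any shift common to most genes, and no detection calls were used. Of 54675 probe sets, 62 manufacturer's controls were left out, and the 22829 with log2 above 4 on at least 3 arrays were tested, 10966 genes being named alone.

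All 12 arrays entered 1 limma model of 4 groups (limma 3.58.1, R 4.3.3, lmFit, contrasts.fit and eBayes, 8 residual degrees of freedom), tested on simulated data. The simulated arrays were independent of each other, so that test does not cover the correlation by replicate number given below. Calls were made at an adjusted p under 0.05, by Benjamini-Hochberg over all tested probe sets. Intervals are limma's 95% intervals, and errors marked SE come from its fit. The number of arrays limits the precision.

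The genes and lists, and the rules for naming genes, were chosen with earlier results of these data known. Values on every array were given for the 6 called genes with the largest change at each time, the 4 polymerase I subunits, POP1, POP5, NCL, NPM1 and FBL. From each other list, up to 4 called genes with the largest change were named. With fewer than 2 called, the 2 with the smallest p were named, and MYC was named in any case. Of those lists, values on every array were given only for POLR1D, MYC and MXD1. Deviations from group means correlated at 0.162 to 0.669 in all 18 pairs of arrays with the same replicate number, and at a median of -0.208 in the 36 other pairs, so the numbers were taken to pair arrays; the pairing comes from the data, and a fit with the number as a block was an alternative. Other alternatives changed the filter, normalization, probe set per gene, moderation, array weights and arrays used.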

Additional observations from a re-analysis of the deposited data

How the results depend on the processing

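The direction of the median change held under every alternative that could move it. Over the 35 genes it lay between -0.71 and -0.55 at 24 h and between -0.50 and -0.32 at 48 h. Many alternatives leave this median the same by design and are no check of it. These are the block fits, the fit of only 2 groups, the fit without a filter, the other moderation and arrays left out at the other time. The counts of calls did not hold. The 20 genes called at 24 h became 0 with the replicate block fitted within each time (0% of all probe sets called). They became 0 with only the 2 groups compared in the fit (0.491%) and 8 with no filter on low values (1.55%). The 7 called at 48 h became 0 (0%), 0 (0.504%) and 1 (1.54%) under those settings. They became 20 with array weights (49.1% of all probe sets called) and 18 without both Nnm arrays numbered 2 (42.1%). For the wider lists, the 46 called at 24 h became 0 (0%), 0 (0.491%) and 13 (1.55%) under the first 3 settings. They became 91 and 80 under the last 2, when 53.0% and 47.0% of all probe sets were called. The 12 at 48 h became 0 (0%), 0 (0.504%) and 2 (1.54%), then 69 and 59. The counts of 91, 80, 69 and 59, of 191 genes, are below the shares of all probe sets. Array weights and the fit without both Nnm arrays numbered 2 gave 5 and 3 calls for the difference between the times, and 7 and 4 for Nnm at 48 h against 24 h, where the main count was 0; all probe sets were called at 17.1% and 11.2%, and at 34.4% and 21.8%, so these counts of 35 lie below those shares. The settings with only 2 groups or a block in each time leave fewer residual degrees of freedom; for the others the cause was not tested.

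When replicate numbers were fitted as blocks across the 12 arrays, following the pairing of the numbers, the counts at 24 h and 48 h were 25 and 9 for the 35 genes. For the wider lists they were 61 and 27. The block raised the share of all probe sets called to 29.3% and 22.1%, from 14.7% and 10.2%, and 0 of the 35 lost their call. Beside the calls named in the text with it, the block changed no other call among the 35.

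Leaving out single arrays in turn gave 0 to 23 calls at 24 h and 0 to 14 at 48 h for the 35 genes, 0 to 68 and 0 to 38 for the wider lists, 0 to 2 for the difference between the times, 0 for control cells over time and 0 to 4 for Nnm cells over time. The 2 and the 4 calls came without Nnm replicate 2 of 24 h, when 4.5% and 16.1% of all probe sets were called. Thus 2 of 35 is near the share and 4 of 35 is below it. The 23 and the 14 calls came without Nnm replicate 2 of 48 h, when 21.7% and 26.8% of all probe sets were called. The 68 and the 38 calls, of 191 genes, are below the shares of all probe sets, 38% and 26.8%. The counts for the wider lists follow, with the share of all probe sets called in brackets. At 24 h the count was 0 without Nnm replicate 1 (0.377%) or control replicate 3 (0.355%) of that time. It was 1 without Nnm replicate 3 (0.841%) and 8 without control replicate 1 (1.77%), both of 24 h. The 48 h count was 0 without Nnm replicate 1 (1.06%), Nnm replicate 3 (0.907%), control replicate 1 (1.32%) or control replicate 3 (1.77%) of 48 h. It was 3 without control replicate 2 (3.57%) and 38 without Nnm replicate 2 (26.8%), both of 48 h. Leaving out 24 h arrays, it was 27 without Nnm replicate 2 (20.2%) and 7 without control replicate 2 (6.96%). It was 5 without Nnm replicate 3 (7.64%) or control replicate 1 (6.19%) of 24 h.

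The sign turned only for changes that were not called, the largest being those of RRP9 (-0.23) and TWISTNB (-0.22) at 48 h. NOP14 at 24 h was 0.016 without both Nnm arrays numbered 2 (-0.25 to 0.016 with single arrays left out). At 48 h WDR75 was -0.011 and NCL -0.045 with each array centred on its median, TWISTNB 0.021 with all probe sets averaged, RRP9 0.11 and LYAR 0.079 with array weights, and RRP9 5.0e-04 without both Nnm arrays numbered 2. With single arrays left out, the 48 h changes ranged from -0.056 to 0.12 for WDR75, -0.41 to 5.0e-04 for RRP9, -0.24 to 0.011 for RRS1, -0.017 to 0.17 for POP5, -0.0014 to 0.029 for NCL and -0.25 to 0.16 for LYAR. The limits that bear on all values are 3 arrays a group, 1 cell line, 1 dose and the lack of detection calls.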

Other observations

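MXD1, which like MXI1 pairs with MAX and opposes MYC, was chosen for mention after its values were seen. At 24 h it read 5.42, 5.95 and 6.11 in controls and 8.43, 6.14 and 8.38 with Nnm, and at 48 h 5.47, 5.86 and 6.02 in controls and 8.01, 6.52 and 7.95 with Nnm. Every Nnm array was above the controls of its time, with the arrays numbered 2 the nearest to them. Its changes of 1.82 and 1.71 were not called by limma (adjusted p = 0.0597 and 0.0842) and passed with the replicate block (adjusted p = 0.0319 and 0.0438). Of the 9 tested genes of the MYC network, 3 had a change below 0 and 6 above 0 at 24 h. At 48 h 5 were below 0 and 4 above.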
